A study of Caenorhabditis elegans with 2 samples.

Results

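The peaks described here are those of REC-8 on the X chromosome of Caenorhabditis elegans whose summit, the highest point of the peak, lay over 250 bp from every annotated tRNA, snoRNA, snRNA and rRNA gene. In the list called by the authors on both replicates pooled, 1073 of the 1311 X peaks met this rule, out of 10013 peaks on the 6 nuclear chromosomes and 10019 in all. The peaks of the 5 autosomes chosen in the same way numbered 8218 and served for comparison. The data came from chromatin immunoprecipitation and sequencing (ChIP-seq) of whole hermaphrodites of strain YL581, taken as young adults 50 hours after release from starved L1 larvae that had been synchronized by bleaching. Per the labels, the worms were a stable transgenic line with a GFP-FLAG tag at the C terminus of REC-8 (eGFP in the description) and the immunoprecipitation used an anti-GFP antibody, whereas the antibody field names rec-8. There was 1 group of 2 biological replicates, with a different protocol document cited for each. No untagged worms are analysed here, and the control named in the labels is not analysed here, so no background was measured in the same way.

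REC-8 is a meiosis-specific kleisin, the ring-closing subunit of a cohesin complex that holds sister chromatids together in germ cells. In the hermaphrodite germ line the X chromosome is largely silent until oogenesis, and genes used throughout the germ line lie mostly on autosomes. In somatic cells of hermaphrodites the dosage compensation complex, which contains a condensin, loads onto both X chromosomes at recruitment sites that carry a GC-rich sequence motif and lowers X transcription. Chromatin of whole worms holds germ line and soma together, and their contributions to a peak cannot be told apart.

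All members were 430 bp wide. The sequences at the 6 X members of highest signal are shown because they hold the sequence elements that are counted by rank further on. Each is the plus strand of build ce11 (WBcel235), 201 bases centred on the summit, with no UTR bases. Capitals mark, on either strand, GCGCAGG (7-letter core of the dosage compensation recruitment motif; capitals of 9 letters mark its longer form TCGCGCAGG) or GGTTCGA and GGTTCAA (forms of box B, the internal promoter element of tRNA genes that is bound by the factor that recruits RNA polymerase III).
At pseudogene WBGene00020829, chrX:1837771-1837971: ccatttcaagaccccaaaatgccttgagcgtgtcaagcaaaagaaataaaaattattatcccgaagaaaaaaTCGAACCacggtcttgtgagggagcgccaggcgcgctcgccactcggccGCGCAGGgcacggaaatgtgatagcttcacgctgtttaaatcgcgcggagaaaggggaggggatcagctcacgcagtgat
At ncRNA gene C14F11.14, chrX:6207810-6208010: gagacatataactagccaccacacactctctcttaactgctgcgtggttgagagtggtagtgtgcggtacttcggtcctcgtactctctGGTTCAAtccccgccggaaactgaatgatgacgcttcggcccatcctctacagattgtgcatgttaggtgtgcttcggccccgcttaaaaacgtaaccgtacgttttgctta
In mom-1, chrX:6296402-6296602: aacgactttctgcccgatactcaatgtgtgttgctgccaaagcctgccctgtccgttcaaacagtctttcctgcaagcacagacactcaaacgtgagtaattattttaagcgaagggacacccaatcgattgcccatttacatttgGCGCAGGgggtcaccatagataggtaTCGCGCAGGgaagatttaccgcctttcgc
At ncRNA genes ZK816.8 and ZK816.9, chrX:3347992-3348192: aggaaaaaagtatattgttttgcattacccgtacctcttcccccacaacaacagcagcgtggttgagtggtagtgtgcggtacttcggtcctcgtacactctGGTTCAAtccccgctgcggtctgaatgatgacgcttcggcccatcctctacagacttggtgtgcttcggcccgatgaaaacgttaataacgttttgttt
Intergenic, strongest, chrX:11094125-11094325: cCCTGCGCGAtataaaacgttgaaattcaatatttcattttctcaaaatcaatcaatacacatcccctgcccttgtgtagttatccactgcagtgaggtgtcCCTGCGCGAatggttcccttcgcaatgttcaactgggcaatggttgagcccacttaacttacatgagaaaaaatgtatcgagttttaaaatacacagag
Intergenic, near T27A8.7, chrX:16056488-16056688: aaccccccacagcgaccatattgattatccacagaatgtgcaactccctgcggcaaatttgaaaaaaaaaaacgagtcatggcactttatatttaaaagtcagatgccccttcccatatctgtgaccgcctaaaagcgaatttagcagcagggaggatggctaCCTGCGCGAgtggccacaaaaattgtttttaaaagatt

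The strongest member (signal 199.9, rank 90 in the pooled list) lay in pseudogene WBGene00020829 and held both the core and box B. The caller's signal was 87.0 in replicate 1 and 110.4 in replicate 2 for this member. The members at C14F11.14 and at ZK816.8 and ZK816.9, all annotated as non-coding RNA (ncRNA) genes, had pooled signals of 167 and 141. They shared an identical run of 34 bases downstream of GGTTCAA, the longest run shared by any pair of thresholded X members, and each had 1 further copy in the genome of at least 100 bp. The member in an intron of mom-1, which encodes a Porcupine-family protein needed for Wnt secretion, had a pooled signal of 144.0 and carried the core and the 9-letter form.

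Members were scarce on X. X held 11.5% of the peaks away from short RNA genes in the pooled list (1073 of 9291, exact 95% interval 10.9 to 12.2%), although it makes up 17.6% of the sequence that far from such genes. That is 61.1 members per Mb on X and 100.1 per Mb on the autosomes, a ratio of 0.611. The replicates' own lists gave 123 per Mb on X and 178 on autosomes for replicate 1 (ratio 0.693), and 93.9 and 142 per Mb for replicate 2 (ratio 0.662). X had the lowest density of the 6 chromosomes in all 3 lists, and the next lowest in the pooled list was chromosome IV with 83.0 per Mb. With 2 replicates of 1 group there is no test between samples (a paired sign permutation cannot go below p = 0.5), so the figures are given with exact 95% intervals that cover counting error only.

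**Figure D1:**
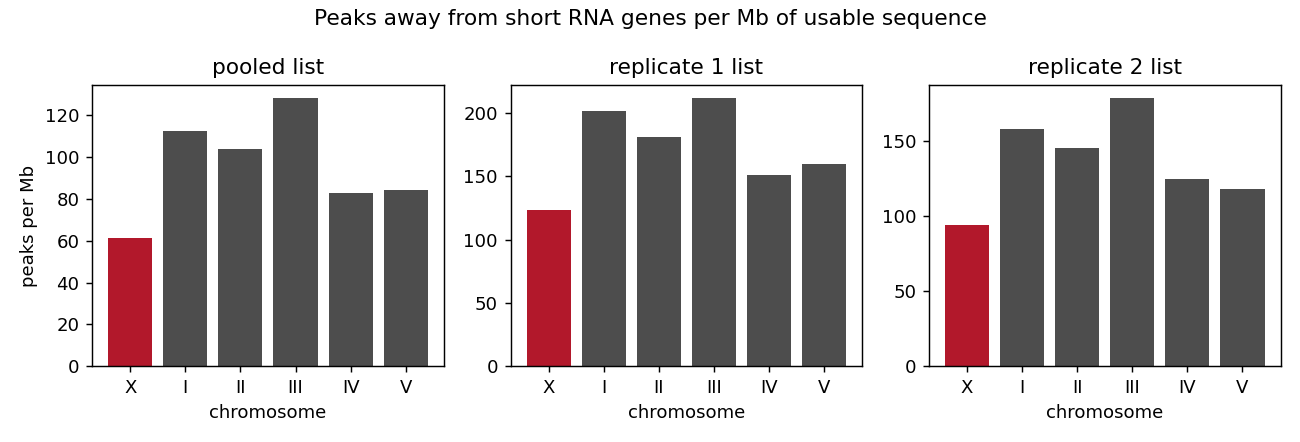
Peaks over 250 bp from short RNA genes per Mb of usable sequence, for X (red) and each autosome (grey), in the pooled list and in each replicate's list. X is the lowest bar in each panel, at 61.1, 123 and 93.9 per Mb.

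The scarcity of members was greatest among the strongest peaks. Of the peaks ranked 1 to 739 by pooled signal, X held 14 of the 342 away from short RNA genes (4.09%, 2.26 to 6.77%), and its density was 0.200 of the autosomal one. The ratio was 0.345 for ranks 740 to 2000, 0.559 for ranks 2001 to 5000 and 0.737 from rank 5001 on. The replicate lists gave 0.220, 0.416, 0.567 and 0.766 in replicate 1 and 0.240, 0.387, 0.641 and 0.723 in replicate 2. The order was the same in each list. Peaks ranked 1 to 739 are also those of the thresholded list, the pooled peaks kept by the authors for a low irreproducible discovery rate, a measure of how far the ranking of peaks repeats. It held 1.30% of X members (14 of 1073, 0.715 to 2.18%) and 3.99% of autosomal peaks (328 of 8218, 3.58 to 4.44%), where all nuclear peaks, those near short RNA genes included, stood at 7.32%.

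Signals differed less than densities. The pooled signal of members had a median of 45.8 on X and 48.0 on autosomes, an upper quartile of 52.4 on X and 57.0 on autosomes, and a 95th percentile of 68.6 on X and 86.8 on autosomes. The highest values were 199.9 on X and 469 on autosomes. Both distributions began at about 40.0, the lower end of the deposited list, so these are medians of truncated distributions. The ratio of medians was 0.954 in the pooled list, 0.969 in replicate 1 and 0.974 in replicate 2, and X had the lowest median of the 6 chromosomes in each.

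Members on X were less often matched in both replicates. A replicate peak was a match when the overlap spanned at least 50% of the shorter peak. Both replicates matched 428 of 1073 X members (39.9%, 36.9 to 42.9%) and 3882 of 8218 autosomal peaks (47.2%, 46.2 to 48.3%), against 49.4% of all nuclear peaks. Replicate 1 matched 75.4% of X members and 77.4% of autosomal peaks, and replicate 2 matched 62.0% of X members and 67.3% of autosomal peaks. The pooled list was drawn from both replicates, so this overlap is no independent check, and read depth is unknown. Over the members matched in both, the replicates' signals had a Spearman rho of 0.22 on X (n = 428) and 0.36 on autosomes (n = 3882), given as a description of peaks that share libraries.

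Starts of protein-coding genes held fewer of the members on X. The window from 1000 bp upstream to 500 bp downstream of a transcript start held 324 of 1073 X summits (30.2%, 27.5 to 33.0%) and 3544 of 8218 autosomal summits (43.1%, 42.1 to 44.2%). These windows made up 26.9% of the usable sequence of X and 33.0% of that of the autosomes, which gives folds of 1.12 for X and 1.31 for autosomes. The difference in share, X minus autosomes, was -12.9 percentage points in the pooled list (Newcombe 95% interval -15.8 to -9.92), -10.9 in replicate 1 (-13.0 to -8.84) and -9.82 in replicate 2 (-12.2 to -7.39). X had the lowest share of the 6 chromosomes in all 3 lists. Its fold was the lowest in the pooled list and in replicate 1, and lay above that of 1 autosome in replicate 2.

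Members were thinned out on X inside and outside these windows. The X density was 0.526 of the autosomal one inside the windows and 0.686 outside them in the pooled list. The corresponding ratios were 0.615 inside and 0.749 outside in replicate 1, and 0.615 inside and 0.705 outside in replicate 2. X carries 236 protein-coding transcript starts per Mb of usable sequence and the autosomes 312, and the part of this in the density of members was not tested. Of 2731 protein-coding genes on X, 316 (11.6%, 10.4 to 12.8%) had a member in their start window, whereas 3679 of 17242 autosomal genes (21.3%) had one.

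Summits per start were fewer on X both close to starts and farther upstream. From 200 to 100 bp upstream, the highest bin of each profile, the pooled list had 12.1 summits per 1000 starts on X and 22.8 on autosomes. The bin from 300 to 200 bp upstream had 8.44 on X and 22.2 on autosomes, and the last 100 bp had 7.71 and 20.1. At 1500 to 1400 bp upstream the pooled list had 5.54 on X and 10.7 on autosomes. From 200 to 100 bp upstream, replicate 1 had 19.3 on X and 29.1 on autosomes, and replicate 2 had 14.9 on X and 26.0 on autosomes. Autosomal summits formed a broad hill over the last 500 bp before the start, while the X profile was lower throughout and uneven from bin to bin.

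**Figure D2:**
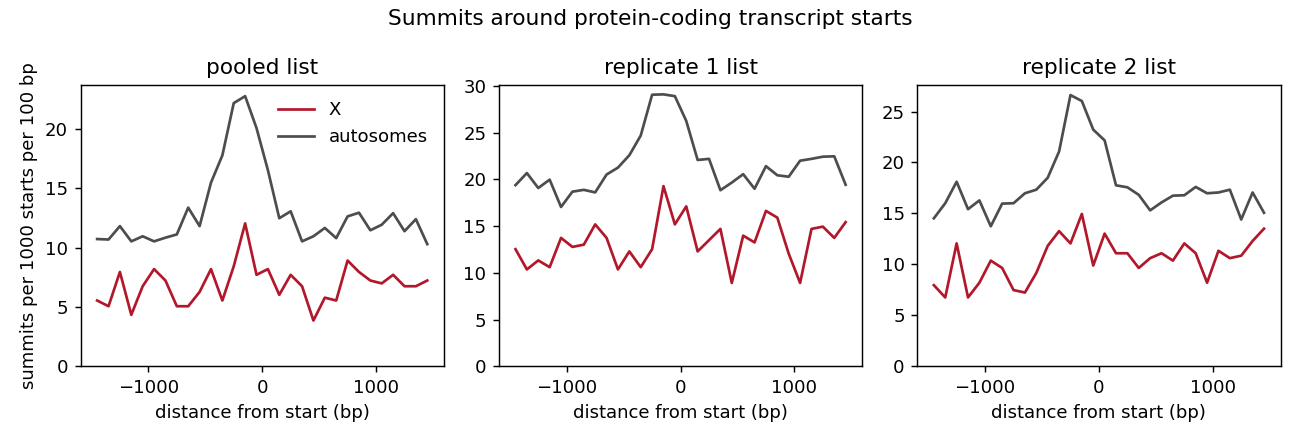
Summits per 1000 protein-coding transcript starts in 100 bp bins, against the distance from the start in bp (negative is upstream), for X (red) and autosomes (grey) in the 3 lists. In the pooled list the bin from 200 to 100 bp upstream stands at 12.1 on X and 22.8 on autosomes.

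Among the strongest peaks the gap at starts was widest. At ranks 1 to 739, 5 of 14 X members (35.7%, 12.8 to 64.9%) and 231 of 328 autosomal peaks (70.4%, 65.2 to 75.3%) lay in a start window. These intervals did not meet in the pooled list. In the replicate lists the share was 35.3% on X in both (6 of 17, 14.2 to 61.7%), against 66.8% on autosomes in replicate 1 (61.6 to 71.6%) and 66.2% in replicate 2 (60.8 to 71.2%), and there the intervals did meet. From rank 5001 on, the shares were 28.5% on X and 38.5% on autosomes. On autosomes the share was lower in each successive band of each list, and on X it lay between 27.1% and 36.0% in all bands of all 3 lists. The difference between X and autosomes in this dependence on rank was not tested.

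**Figure D3:**
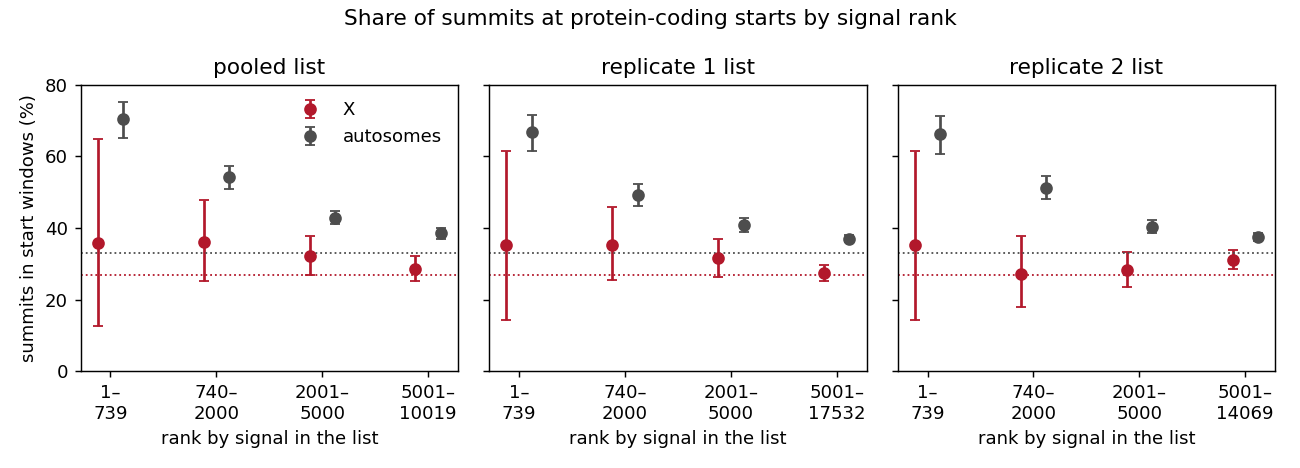
Share of summits in start windows by signal rank within each list, for X (red) and autosomes (grey), with exact 95% intervals; dotted lines give the share of usable sequence in such windows, 26.9% on X and 33.0% on autosomes. Autosomal shares reach 70.4% at ranks 1 to 739 of the pooled list and X shares 35.7%.

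The ends of genes also held a smaller share of the members on X. Within 500 bp of a protein-coding gene end lay 16.1% of X members (14.0 to 18.5%) and 32.3% of autosomal peaks (31.3 to 33.3%), where such sequence made up 13.4% on X and 17.9% on autosomes. The difference was -16.2 percentage points in the pooled list (Newcombe 95% interval -18.5 to -13.6), -12.9 in replicate 1 (-14.5 to -11.2) and -11.3 in replicate 2 (-13.3 to -9.30). It was not compared with the difference at starts. Summits in 3' UTRs made up 2.42% of X members (26 of 1073) and 6.35% of autosomal peaks (522 of 8218), or 0.693 and 1.94 times the share of 3' UTRs in the usable sequence. The replicate lists gave 3.32% on X and 4.92% on autosomes in replicate 1, and 3.27% on X and 5.63% on autosomes in replicate 2. Windows at ends and starts of neighbouring genes overlap, so these counts are not separate from those at starts.

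Relative to their share of the usable sequence, coding exons, introns, intergenic sequence and 5' UTRs differed less between X and autosomes. Coding exons held 23.9% of X members and 27.2% of autosomal peaks, which is 1.19 and 1.06 times their share of the sequence. Introns held 29.1% of members on X and 29.2% on autosomes, or 0.945 and 0.863 times their share. Intergenic sequence held 37.7% on X and 31.9% on autosomes. It makes up 40.9% of usable X and 31.7% of usable autosomal sequence, which gives folds of 0.921 and 1.01. In 5' UTRs lay 2.14% of X members and 2.08% of autosomal peaks, or 1.57 and 1.44 times their share.

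Of the non-coding genes that the rule did not use, ncRNA and microRNA genes lay near a larger share of members on X, and pseudogenes and piRNA genes near a smaller one. For each of these kinds, the share of usable sequence near them differed between X and autosomes in the same direction. An ncRNA gene lay within 250 bp of 11.3% of X members (121 of 1073, 9.45 to 13.3%) and of 4.72% of autosomal peaks (388 of 8218), where 6.76% of usable X sequence and 3.20% of usable autosomal sequence is that close to one. A microRNA gene lay that close to 9 X members (0.839%, 0.384 to 1.59%) and to 0.268% of autosomal peaks, with 0.210% of sequence on X and 0.123% on autosomes. The strongest of these were at cel-mir-8196b in an intron of prx-1, a peroxisome biogenesis gene (112.7), beside cel-mir-4812 in an intron of piki-1, which encodes a phosphoinositide 3-kinase (104.3), and at cel-mir-1829b (87.4). The genes cel-mir-8196b and cel-mir-1829b each had a pair of members beside them, so the 9 members stood for 7 genes. Pseudogenes lay within 250 bp of 1.40% of X members and 2.79% of autosomal peaks, with 2.49% of sequence on X and 4.60% on autosomes. For piRNA genes the shares were 0.186% of X members and 1.38% of autosomal peaks, with 0.463% of sequence on X and 4.39% on autosomes. Antisense RNA genes lay near 0 of 1073 X members (up to 0.343%) and 0.158% of autosomal peaks, with 0.0933% of sequence on X and 0.158% on autosomes. For lincRNA genes the shares were 0.466% on X and 0.353% on autosomes, with 0.342% of sequence on X and 0.325% on autosomes.

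The core GCGCAGG of the recruitment motif was concentrated in the strongest X members. It occurred within 100 bp of the summit, on either strand, in 24 of 1073 X members (2.24%, 1.44 to 3.31%) and 72 of 8218 autosomal peaks (0.876%, 0.686 to 1.10%), and in 0.376% of all 201 bp tiles of X and of the autosomes alike. At ranks 1 to 739 it was in 6 of 14 X members (42.9%, 17.7 to 71.1%) and 3 of 328 autosomal peaks (0.915%, 0.189 to 2.65%). At ranks 740 to 2000 it was in 5 of 75 X members (6.67%) and 7 of 1016 autosomal peaks (0.689%). At ranks 2001 to 5000 the shares were close, with 4 of 311 X members (1.29%, 0.352 to 3.26%) and 31 of 2602 autosomal peaks (1.19%, 0.811 to 1.69%). From rank 5001 on it was in 1.34% of X members and 0.726% of autosomal peaks. Ranked within replicate 1, 7 of 17 X members and 3 of 361 autosomal peaks of the first 739 had it, and within replicate 2, 6 of 17 on X and 2 of 331 on autosomes. The replicate lists come from the same libraries as the pooled list.

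**Figure D4:**
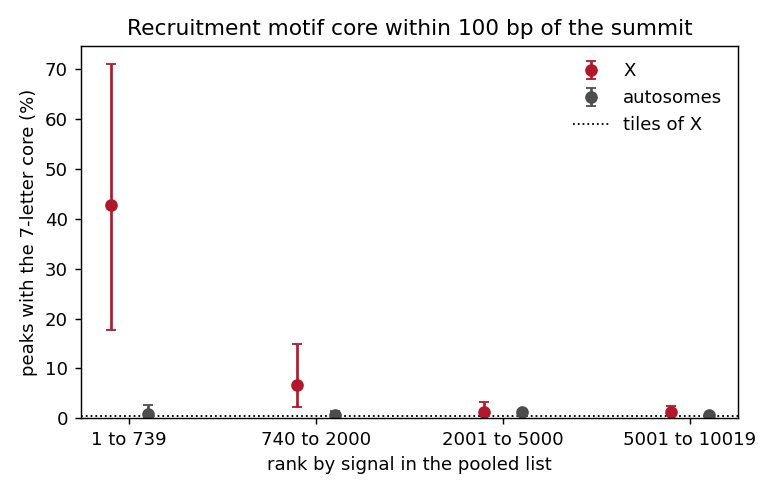
Share of peaks with GCGCAGG on either strand within 100 bp of the summit, by rank in the pooled list, for X (red) and autosomes (grey) with exact 95% intervals; the dotted line is the share of 201 bp tiles of X with it. X stands at 42.9% at ranks 1 to 739 and autosomes at 0.915%.

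The longer form TCGCGCAGG, which contains the core, was added after the strongest members had been read. It occurred in 11 X members and 4 autosomal peaks. Those 11 X members had a median pooled signal of 91.4, and the other 1062 had 45.8. Of the 11, 5 were on the thresholded list and 8 were matched in both replicates. The form was chosen by reading the strongest members, so their higher signal and thresholded share are not independent of that choice. Over all usable sequence, peaks included, there were 2.68 sites of this form per Mb on X and 0.828 per Mb on autosomes. Of its sites, 15 of 47 on X (31.9%, 19.1 to 47.1%) and 8 of 68 on autosomes (11.8%, 5.22 to 21.9%) lay within 250 bp of a summit, where 2.99% of usable X and 4.84% of usable autosomal sequence is that close. The share of X sites near a summit, and its difference from autosomes, are likewise not independent of how the form was chosen. Most sites on X had no member beside them.

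The 9-letter form was present at the members in mom-1 (signal 144.0), at X:11094225 (134.7, with 2 copies in the sequence shown), at X:16056588 (131), at X:14525965 (111.9) and at X:4209255 (105.6), all thresholded. The member at X:14525965 lay 784 bp upstream of nspc-17, of a family of nematode-specific peptide genes. Below the threshold came members at X:2997089 (91.4), at X:1344986 (89.8) and at X:806615 (77.9), each matched in both replicates. The member at X:1344986 lay 565 bp upstream of ins-39, an insulin-like peptide gene, with signals of 54.9 in replicate 1 and 31.1 in replicate 2. The other 3 of the 11 had pooled signals of 47.2 to 54.3 and no match in replicate 2.

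Forms of box B occurred in some of the strongest members. Among the 14 thresholded X members, 5 had GGTTCGA or GGTTCAA, 6 had the recruitment core, 1 of them had both, and 4 had neither. GGTTCGA alone was in 3 of the 14 X members (21.4%, 4.66 to 50.8%) and 26 of 328 thresholded autosomal peaks (7.93%, 5.24 to 11.4%). Over all members it was in 1.40% on X, 2.79% on autosomes and 1.13% of X tiles. GGTTCAA, added after the sequences were seen, was in 2 of the 14 (14.3%, 1.78 to 42.8%). It was in 7 of 328 thresholded autosomal peaks (2.13%, 0.862 to 4.35%). Over all members GGTTCAA was in 2.61% on X, 2.70% on autosomes and 2.97% of X tiles, so it was not more frequent in X members as a whole. The 4 with neither motif were at cel-mir-8196b, at X:10568782, 491 bp upstream of bet-2 (107.9), which encodes a bromodomain protein, and at intergenic sites X:1010974 (99.7) and X:11937584 (95.3). The remaining thresholded member with box B beyond those shown above lay at X:16893989, 888 bp upstream of F39F10.2 (118.8), beside that at piki-1. The highest X member off the thresholded list, at X:1627109 (91.8), lay 1028 bp upstream of fbxb-58, an F-box gene, and also had box B.

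Further motifs were counted over all members. TTGGTCA, a core of the repeats of the X pairing centre at which a zinc finger protein binds in meiosis, was in 2.52% of X members and 3.15% of X tiles, and in 1.84% of autosomal peaks and 2.47% of autosomal tiles. GAGAGA was in 15.7% of X members and 9.46% of X tiles, and in 13.2% of autosomal peaks and 10.1% of autosomal tiles. The GC content of the 201 bp at the summit averaged 40.5% ± 7.96 (SD over 1073 members) on X and 39.3% ± 7.54 (SD over 8218 peaks) on autosomes. Flanks centred 1000 bp away averaged 36.0% on X and 36.6% on autosomes. The thresholded X members averaged 45.4% at the summit and 37.7% in their flanks. A second copy in the genome, over at least 100 bp at 90% identity or more, existed for 55 X members (5.13%) and 502 autosomal peaks (6.11%).

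Members were spread over the whole of X. Of the 10 equal parts of X, the first held 63.6 members per Mb, the third 70.3, the sixth 50.8 and the last 66.9, whereas the same parts summed over the autosomes ranged from 89.6 to 107.6 per Mb. Single autosomes could lie lower than X. In the ninth and last parts chromosome IV had 62.7 and 56.5 per Mb, where X had 68.9 and 66.9. The outer 30% at either end held 64.0% of X members (61.1 to 66.9%) and 59.5% of autosomal peaks (58.4 to 60.6%), with 60.0% of usable sequence there on both. The shares on X were 63.0% in replicate 1 and 61.7% in replicate 2. In 1 Mb bins (n = 18), the densities in the replicate lists had a Spearman rho of 0.54 with each other, and the pooled density had a rho of -0.30 with the number of starts, as descriptions of bins within 1 chromosome. Neighbouring members were a median of 10774 bp apart on X and 5276 bp on autosomes.

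**Figure D5:**
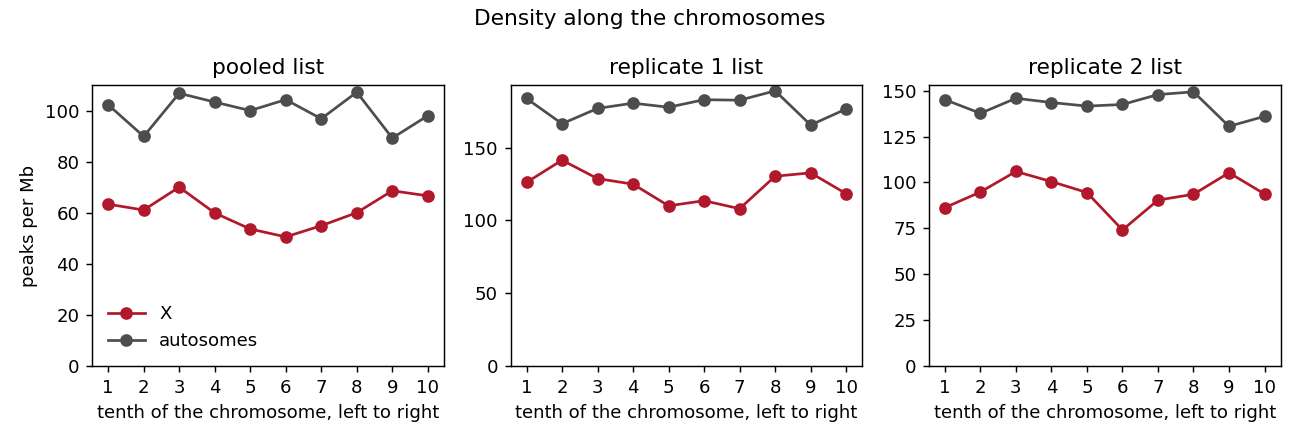
Peaks per Mb in 10 equal parts of the chromosome from left to right, for X (red) and the 5 autosomes together (grey), in the 3 lists. X lies below the autosomes in each part, with its pooled low of 50.8 per Mb in the sixth.

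Gene lists were counted by genes with a member, or an autosomal peak chosen the same way, in the start window. The list counts stand against 11.6% of all X genes and 21.3% of all autosomal genes. Among genes of the X signal, sex determination and dosage compensation, 3 of 7 on X and 4 of 19 on autosomes had one. They were fox-1, which encodes an RNA-binding X signal element (pooled signal 53.8, with 28.7 in replicate 1 and 26.0 in replicate 2), sdc-2, whose protein brings the dosage compensation complex to X (52.2, with 31.1 in replicate 1 and no summit in the window in replicate 2), and ceh-39, a homeobox X signal element (41.3, with 24.4 in replicate 2 and none in replicate 1). Heat shock and chaperone genes had one in 3 of 5 cases on X and 26 of 55 on autosomes. Those on X were dnj-14, a DnaJ-type co-chaperone (55.6), hsp-3, an endoplasmic reticulum chaperone (54.6), and hsp-25, a small heat shock protein (40.0). Both dnj-14 and hsp-3 had a summit in the window in each replicate, and hsp-25 had none in replicate 1. No gene of any of the 19 lists had a thresholded member on X.

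Among lists with many X genes, potassium channels had the highest share with a member (26.3%) and cuticle collagens the lowest (3.33%). These shares rest on few genes. Genes with a member and with a summit in the window in both replicates numbered 2 for potassium channels and 0 for cuticle collagens. They numbered 3 for neuropeptides and insulins, 1 for homeobox genes, 2 for nuclear hormone receptors and 1 for nicotinic and GABA receptors. Cuticle collagens had a member at 1 of 30 genes on X (3.33%) and 24 of 144 on autosomes (16.7%), the X one being col-179 (42.4). Neuropeptide and insulin genes had 4 of 34 on X and 18 of 106 on autosomes, with ins-39 highest and with nlp-22 and nlp-23 sharing 1 summit (51.7). Homeobox genes had 3 of 23 on X and 7 of 63 on autosomes, ceh-39 being followed by ttx-3, a LIM homeobox gene of interneurons (40.3), and vab-15 (40.03). Nuclear hormone receptor genes had 3 of 27 on X and 34 of 247 on autosomes, with nhr-35 (57.0), nhr-45 (51.6) and nhr-281 (41.9). Potassium channel genes had 5 of 19 on X and 8 of 48 on autosomes, led by irk-1 (58.2), slo-2 (52.9) and kqt-2 (45.4). Nicotinic and GABA receptor genes had 2 of 25 on X and 2 of 61 on autosomes, at acr-3 (46.3) and acr-10 (45.5).

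Tissue lists gave small counts on X. In each of them only 1 gene with a member also had a summit in the window in both replicates. Muscle genes had 2 of 14 on X and 10 of 32 on autosomes, at the troponin T genes tnt-2 (47.4) and mup-2 (45.8). Intestinal genes had 3 of 16 on X and 3 of 20 on autosomes, at the transporter gene pgp-6 (49.8) and the protease genes cpr-6 (45.4) and asp-3 (40.8). Neuronal genes had 2 of 14 on X and 8 of 36 on autosomes, at the muscarinic receptor gene gar-1 (53.5) and at syd-9 (44.3). Germ line and oocyte genes had 1 of 2 on X and 27 of 64 on autosomes, the X one being puf-9, a Pumilio-family gene (62.4, 27.7 in replicate 1 and 46.9 in replicate 2).

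The remaining lists hold few X genes to begin with. Ribosomal protein genes had a member at 0 of 2 on X and 54 of 79 on autosomes, and cohesin and condensin genes at 0 of 1 on X and 14 of 22 on autosomes. Meiosis genes had 0 of 1 on X and 16 of 44 on autosomes, and genes of the microRNA pathway 0 of 2 on X and 3 of 11 on autosomes. Histone genes had 1 of 5 on X and 16 of 76 on autosomes, the X one being his-71, which encodes a replacement histone H3 (54.7). Translation factors had 1 of 3 on X, at ife-4 (46.8), and 18 of 37 on autosomes, and vacuolar ATPase genes 1 of 3 on X, at vha-20 (57.7), and 8 of 18 on autosomes. In replicate 1, ife-4 and vha-20 had no summit in the window. With so few X genes, these counts describe the genes and bear no comparison of shares.

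Few members lay near the distance limit. Of the 1073, 862 (80.3%) had their summit over 10000 bp from the nearest short RNA gene, and 12 lay within 1000 bp. The members just inside were 254 bp from the tRNA gene C02D4.t1 (signal 53.9), 304 bp from the snoRNA gene Y59E1B.14 (46.6) and 550 bp from the tRNA gene F47E1.t3 (42.9). Just outside, summits stood 212 bp from the snoRNA gene C34E11.20 (75.4), 204 bp from the snRNA gene M163.13 (55.4) and 188 bp from the tRNA gene T04F8.t1 (53.9).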

How the data were processed

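Per the file listings, the authors called the deposited peaks from alignments and a control, once per replicate and once on the pooled replicates. The sources used here name no aligner, caller or version. The deposited signal of each peak is the caller's own and was used within a list only. The deposited −log10 q values were not used for ranking. Depth is unknown.

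Summits were placed on ce11 (WBcel235) and compared with gene models of Ensembl release 115; usable sequence means bases over 250 bp from tRNA, snoRNA, snRNA and rRNA genes. Intervals are exact 95% Clopper-Pearson intervals, or Newcombe intervals for differences, and treat peaks as independent. Software was Python 3.11.15, pandas 2.3.3, scipy 1.17.1, statsmodels 0.14.6 and blastn 2.17.0. Counting was checked on simulated data. The ce10 lists served only for the X share of all nuclear peaks.

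Members, lists and motifs were chosen with earlier results of these data known. Named members were the 15 of highest pooled signal, all thresholded ones, up to 3 X genes per list, the 3 on each side of the distance limit, and the 3 densest 100 kb windows. Members with the 9-letter motif or beside microRNA genes were chosen after their values were seen. The rank bands, the 10 equal parts, the 500 bp at gene ends and the motifs TCGCGCAGG and GGTTCAA were added after the data were seen.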

Additional observations from a re-analysis of the deposited data

How the results depend on the processing

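Of 103 values from alternatives, 67 moved by less than 1 SD of the values from both replicate lists (or stayed inside the exact interval, for the thresholded share, the match in both replicates and the share of all nuclear peaks), 36 moved further, and none changed the sign of the difference at starts. Distance limits of 100 and 1000 bp, distance from the peak edge and merged overlapping peaks moved none of them further. Peaks at or above the median pooled signal gave an X share of 9.20%, a density ratio of 0.474, 3.49% of members thresholded, 33.2% at starts on X (difference -15.0 points, fold 1.24), 62.8% in the outer parts and 69.6% matched in both replicates. The thresholded list gave an X share of 4.09%, a density ratio of 0.200, a signal ratio of 1.03, and 35.7% at starts (difference -34.7, fold 1.33), with 14 X members. Windows of 250 bp on either side of starts held 13.1% of X members (difference -8.21, fold 1.33), and windows from 2000 bp upstream 41.4% (difference -14.7, fold 1.02). An overlap of 1 bp gave 43.5% matched in both replicates, and the outer 20% at either end held 42.7%. With each replicate left out in turn, the X share was 12.4 to 12.9%, the density ratio 0.662 to 0.693, the signal ratio 0.969 to 0.974, the share at starts 28.4 to 30.3%, the difference -10.9 to -9.82, the fold 1.06 to 1.13 and the outer share 61.7 to 63.0%. Leaving out peaks near ncRNA, microRNA, pseudogene, lincRNA and antisense RNA genes gave an X share of 10.9% and a density ratio of 0.583. This setting was added after seeing the data and kept peaks near piRNA genes. Leaving out peaks with a second copy or with the 9-letter motif, also added, moved none of the values further. X held 13.1% of all nuclear peaks in both builds. The cause of these moves was not tested. Depth is unknown, so a peak missing from a list is no evidence of absent signal.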

Other observations

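Members were also counted in windows of 100 kb along X. Whether the counts varied more than random placement would give was not tested. Each of the 178 windows of 100 kb held at least 1 member, with a median of 6 and at most 14. The densest, X:6700001-6800000, held 14 members with a median pooled signal of 48.2, and 19 and 17 in the lists of replicates 1 and 2. It contains the potassium channel gene irk-1, the acetylcholine receptor genes acr-2 and acr-3 and the metal transporter genes smf-1 and smf-2. The next, X:2900001-3000000 and X:3100001-3200000, held 13 each, and the second of these contains the glyceraldehyde-3-phosphate dehydrogenase genes gpd-2 and gpd-3.

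The longest stretch of X without a member ran from X:5444839 to X:5586207 (141368 bp) and contains dlg-1, which encodes a scaffold protein of epithelial junctions, and mec-2, a gene of touch receptor neurons. The list of replicate 1 had 10 members there and that of replicate 2 had 5, so the stretch was bare in the pooled list and not in the replicates' own.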
